A study of Homo sapiens with 8 samples.

Results

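The RNAs described here are the long non-coding RNAs whose gene symbol is LINC followed by digits only, measured by RNA-seq in MDA-MB-231 and MDA231-LM2 breast cancer cells with and without a hairpin against TAF7. They were chosen by name and selected on their summed read counts: a row entered when its counts over all 8 libraries came to at least 80. Of 61552 genes in the count table, 2145 carried such a name, of which 1117 had no read in any library and 834 had 1 to 79 reads, leaving 194 LINC RNAs. Because the sum of counts chose them, their being detected is not a result. Just inside the limit were LINC02043 with 83 reads and LINC02175 and LINC01503 with 84 each. Just outside were LINC01176 with 79 reads and LINC01186 and LINC01602 with 77 each.

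MDA-MB-231 is a triple-negative breast cancer line, and MDA231-LM2 (LM2 below) is a derivative selected for growth in the lung. Libraries 2 and 3 of each group, 8 in all, fell into 4 groups: LM2 with a TAF7 hairpin (LM2 shTAF7), LM2 with a control hairpin (LM2 control), MDA-MB-231 with the TAF7 hairpin (MDA-MB-231 shTAF7) and MDA-MB-231 with the control hairpin (MDA-MB-231 control). A single TAF7 hairpin, number 3 in the titles, was used in both lines, and its sequence and promoter are not given in the labels. Whether the 2 libraries of a group were grown as separate cultures is not stated, so every p-value rests on the scatter of libraries, which may be technical. An SD below is over the 2 libraries of a group, and an SE is that of the fitted log2 fold change.

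Long intergenic non-coding RNAs are transcribed by RNA polymerase II, are usually capped, spliced and polyadenylated like mRNAs, and code for no long protein. They are named LINC with a number when nothing about function or position gives a better name, so the class is held together by a naming rule and not by a shared role. Many are retained in the nucleus, are less abundant than mRNAs, are cleared by the nuclear exosome and vary more between cell types than coding genes do. TAF7 is a subunit of TFIID, the general factor that recognizes core promoters, and the series title places it in the progression of triple-negative breast cancer.

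Library totals ran from 17217776 to 20292291 counts. TAF7 had 2549 and 2809 reads in LM2 shTAF7 and 3548 and 3527 in LM2 control, and its MDA-MB-231 counts were 1845 and 2160 with shTAF7 and 3446 and 3300 with the control hairpin. It fell in both lines, to 74.2% of control in LM2 and to 58.5% of control in MDA-MB-231 (edgeR, adjusted p = 8.4e-07 and 4.0e-12). The knockdown was weaker in LM2, with a difference in log2 fold change of 0.34 (adjusted p = 0.0054). VIM, CD44, EGFR and CAV1, genes that basal-like lines express, had 2850 or more counts in every library, as did KRT18, which does not mark such lines. Of the luminal genes ESR1 had 1 to 5, PGR 0 to 1, FOXA1 31 to 192, GATA3 80 to 170 and ERBB2 974 to 1389. The leukocyte genes PTPRC, CD3E, ITGAM and CD68 had 0 to 5 counts. The fibroblast genes COL1A2, DCN, LUM and PDGFRA had 0 to 4, but COL1A1 had 69 to 505, and of the endothelial genes CDH5 had 0 to 3, VWF 0 to 16, KDR 7 to 113 and PECAM1 17 to 134. Mitochondrially encoded genes took 5.13% of counts in LM2 shTAF7, 5.86% in LM2 control, 4.19% in MDA-MB-231 shTAF7 and 3.68% in MDA-MB-231 control.

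RefSeq lists promoter windows, 250 bases before to 50 bases after a start, for 128 of the 193 distinct LINC symbols (build GRCh38.p14; 151 windows, since 18 symbols have several starts). The windows of the RNAs on which the knockdown results turn are shown first: LINC00665 and LINC00963, which moved in opposite directions in the 2 lines, LINC02642, which had the lowest log2 fold change of the called RNAs in LM2, and LINC00205, called lower in both lines. All are written 5′ to 3′ along the RNA's strand, and capitals mark matches to the motifs searched. The windows are chr19:36331704-36332003, minus strand, for LINC00665 (1 of its 2 listed starts), chr9:129488410-129488709, plus strand, for LINC00963, chr10:7471991-7472290, minus strand, for LINC02642, and chr21:45287802-45288101, plus strand, for LINC00205.
LINC00665: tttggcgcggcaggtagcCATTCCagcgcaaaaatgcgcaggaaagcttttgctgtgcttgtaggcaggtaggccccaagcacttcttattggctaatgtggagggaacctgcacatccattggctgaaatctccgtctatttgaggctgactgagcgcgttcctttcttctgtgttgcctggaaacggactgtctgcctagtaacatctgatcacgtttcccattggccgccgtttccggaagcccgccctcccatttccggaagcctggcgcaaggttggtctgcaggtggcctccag
LINC00963: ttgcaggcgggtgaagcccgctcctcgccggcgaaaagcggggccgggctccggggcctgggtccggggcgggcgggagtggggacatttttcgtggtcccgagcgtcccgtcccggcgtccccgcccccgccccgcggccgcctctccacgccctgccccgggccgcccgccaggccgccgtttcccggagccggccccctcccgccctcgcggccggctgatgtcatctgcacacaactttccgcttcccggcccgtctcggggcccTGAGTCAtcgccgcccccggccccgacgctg
LINC02642: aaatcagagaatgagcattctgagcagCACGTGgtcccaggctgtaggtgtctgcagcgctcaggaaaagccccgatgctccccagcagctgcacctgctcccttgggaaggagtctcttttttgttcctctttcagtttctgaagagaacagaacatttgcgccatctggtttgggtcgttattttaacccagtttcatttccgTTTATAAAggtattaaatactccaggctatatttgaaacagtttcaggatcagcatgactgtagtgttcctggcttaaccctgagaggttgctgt
LINC00205: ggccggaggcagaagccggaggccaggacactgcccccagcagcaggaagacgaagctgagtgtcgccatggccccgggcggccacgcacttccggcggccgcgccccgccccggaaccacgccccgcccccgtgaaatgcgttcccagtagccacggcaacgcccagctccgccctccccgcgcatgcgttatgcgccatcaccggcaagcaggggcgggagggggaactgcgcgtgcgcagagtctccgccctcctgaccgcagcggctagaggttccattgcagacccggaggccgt

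Each window was searched on both strands for TATAAA, the TATA box, for TGANTCA, the site of AP-1, and for GGAATG, that of TEAD factors. Searches were also made for TGACGTCA, the cyclic AMP response element, for CACGTG, the E-box, and for the NF-kB motif. The LINC00665 window shown held 1 match to GGAATG, on the other strand, that begins 232 bases before the start, and its second window held no match to any of the motifs. LINC00963 held TGANTCA 20 bases after its start. LINC02642 held TATAAA on both strands in 2 overlapping matches, 43 and 45 bases before its start, and CACGTG 223 bases before it. LINC00205 held none of these letters in its window, which at 72.3% G and C is rich in those bases, as is that of LINC00963 at 78.0%. LINC00973, which has 4 listed starts, held TGANTCA in 3 of its 4 windows, GGAATG in 2 and TATAAA in 1. Over the 151 LINC windows, 30 held TATAAA, or 19.9%, against 11.5% of all 35116 promoter windows. The letters TGANTCA stood in 24 LINC windows, or 15.9%, against 7.71% of all windows. The shares for GGAATG were 11.3% of LINC windows and 14.03% of all, for CACGTG 8.61% and 7.26%, for TGACGTCA 1.99% and 1.85%, and for the NF-kB motif 2.65% and 5.91%. The LINC windows also had a lower median share of G and C, 53.7% against 58.7%, and the part of base composition in these shares was not tested. A match is a description of letters and was not tied to any factor here.

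The 194 LINC RNAs were low. Their median level, as a mean over the 8 libraries, was 1.46 CPM (counts scaled to a common library size with edgeR's TMM factors), against 18.2 CPM over all 15923 genes tested. Per length, their median was 0.476 FPKM against 3.37 FPKM for all tested genes, and 53 of the 194 reached a mean of 1 FPKM. All 194 passed edgeR's filter on low counts, and together they held 91.9% of the counts of LINC rows, with 31.6% of their own counts in the 10 highest. The reference annotation types 151 of them as lincRNA, 17 as processed transcript, 8 as antisense and 8 as transcribed unprocessed pseudogene, and it types LINC02693 and LINC00672 as protein coding. For the pseudogene types, reads could be shared with near-identical copies, and for the 13 that overlap a coding gene on its strand and the 8 that overlap one on the other strand, reads cannot be assigned with certainty, since the strand setting of the counting is not given.

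LINC00973, which lies beside DCBLD2, had the highest level per length of the 194. Its FPKM was 19.8 and 20.2 in LM2 shTAF7, 35.1 and 30.7 in LM2 control, 17.8 and 19 in MDA-MB-231 shTAF7, and 12.2 and 13.7 in MDA-MB-231 control. The other 11 of the 12 highest had means over all libraries between 3.25 FPKM for LINC00261 and 7.17 FPKM for LINC00888. These were LINC00888, LINC00857, LINC01116, LINC00601, LINC02742, LINC00680, LINC00205, LINC00294, LINC01615, LINC01806 and LINC00261. Among them LINC00294 was not called in any of the 5 comparisons, with 3.48 ± 0.45 FPKM in LM2 shTAF7, 3.76 ± 0.34 in LM2 control, 3.25 ± 0.67 in MDA-MB-231 shTAF7 and 3.99 ± 0.54 in MDA-MB-231 control (SD). LINC00205 and LINC00294 both averaged 3.62 FPKM over the libraries, so their order has no meaning.

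In LM2, TAF7 knockdown left most changed LINC RNAs lower. Of the 194, 43 fell and 6 rose at an adjusted p under 0.05 (edgeR's quasi-likelihood test, Benjamini-Hochberg over all genes tested). Over all tested genes 19.4% fell and 21.8% rose, so the LINC RNAs' 22.2% lower was near the background and their 3.09% higher was below it. Their median log2 fold change was -0.33, against -0.016 for all tested genes. Of the 181 with a read in LM2, 135 had a log2 fold change below 0, or 74.6%, against 51.3% of all tested genes, and their median was -0.39. Without TMM scaling, the median of all genes moved to -0.14 and that of the LINC RNAs to -0.46, and 59 fell and 5 rose, while the calls over all genes turned from 3478 higher and 3092 lower to 2085 higher and 4664 lower. DESeq2 called 23 lower and 4 higher, and 17 of the 43 and 1 of the 6 kept their call whichever of the 8 libraries was left out. Without LM2 shTAF7 replicate 3, 26 fell, and without LM2 control replicate 3, 3 rose.

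**Figure D1:**
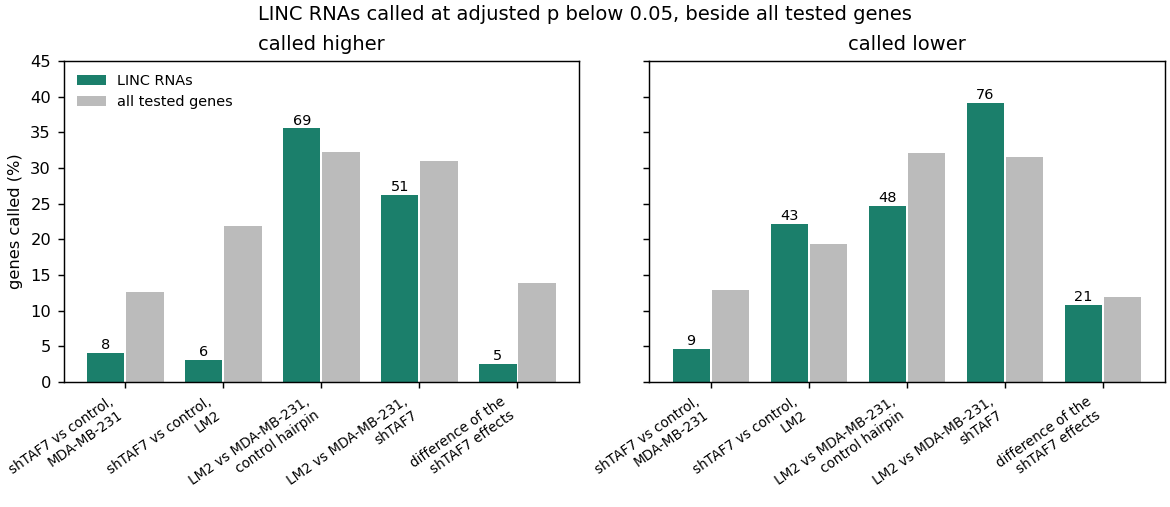
Share of genes called higher (left) and lower (right) in each of the 5 comparisons, in percent, for the 194 LINC RNAs (green, with the number called above each bar) and for all 15923 tested genes (grey). In LM2 knockdown 43 LINC RNAs were lower and 6 higher, while in MDA-MB-231 9 were lower and 8 higher.

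The reads taken by these RNAs as a whole moved the same way. The 194 took 0.0697% and 0.0677% of all counts in LM2 shTAF7, against 0.0905% and 0.0902% in LM2 control, and the groups did not overlap. In MDA-MB-231 they took 0.0777% and 0.0812% with shTAF7, against 0.0820% and 0.0823% in control, and these groups did not overlap either but lay closer to each other than the 2 shTAF7 libraries did. These shares are without TMM scaling, and the size of the fall in LM2 depends on it. With TMM, the 194 summed to a mean of 726 CPM in LM2 shTAF7 and 874 CPM in LM2 control. In MDA-MB-231 the means were 792 CPM with shTAF7 and 810 CPM in control. The number of LINC rows with at least 1 read was 509 and 514 in LM2 shTAF7 and 614 and 631 in LM2 control, while MDA-MB-231 shTAF7 had 541 and 580 and MDA-MB-231 control 559 and 560. Genes of any kind with at least 1 read numbered 22982 and 23047 in LM2 shTAF7 and 24762 and 24490 in LM2 control. Other non-coding genes were also lower in LM2 knockdown by their medians: the 559 other tested genes typed as lincRNA had a median log2 fold change of -0.24, with 102 lower and 30 higher, and the 418 antisense-named genes a median of -0.28, with 65 lower and 18 higher. As shares, 18.2% and 15.6% of these classes were called lower, against 19.4% of all tested genes, and 5.37% and 4.31% higher, against 21.8%. The 12888 tested protein-coding genes had a median of 0.0080. In bulk RNA, fewer cells that express a gene and less RNA of it per cell cannot be told apart.

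Among long non-coding RNAs with other names, 38 of a list of 55 were tested, and 14 fell and 6 rose in LM2 knockdown while 4 fell and 2 rose in MDA-MB-231. Of all tested genes, as a measure for this list and those that follow, 19.4% fell and 21.8% rose in LM2, against 12.9% and 12.6% in MDA-MB-231. NEAT1, the scaffold of paraspeckles, fell in LM2 with a log2 fold change of -1.70 (edgeR, adjusted p = 6.8e-22), and LUCAT1 fell by 1.20 on the log2 scale (adjusted p = 2.3e-11). SNHG12, a snoRNA host, and LINC-PINT rose in LM2, with log2 fold changes of 0.83 and 0.80 (adjusted p = 6.3e-09 and 0.00086). Of 20 tested genes of the nuclear exosome and its cofactors, which degrade many such RNAs, 11 rose and 2 fell in LM2 and 6 rose and 2 fell in MDA-MB-231. EXOSC4 and MPHOSPH6, exosome components, rose in both, with log2 fold changes of 0.49 and 0.45 in LM2 and 0.43 and 0.30 in MDA-MB-231. Of 29 tested genes of Integrator and early transcription termination, 12 rose and 3 fell in LM2, and 2 rose and 6 fell in MDA-MB-231. NELFA and NELFB, subunits of the negative elongation factor, rose in LM2 with log2 fold changes of 0.75 and 0.54. Whether these genes have a part in the LINC levels was not tested.

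LINC00662, reported as a growth-promoting RNA in several carcinomas, had 247 and 298 reads in LM2 shTAF7, against 599 and 631 in LM2 control. The groups were far apart, and it fell to 43.4% of control (-1.20 ± 0.10, SE, adjusted p = 3.4e-13). LINC02642 gave the lowest log2 fold change of the RNAs called in LM2, -3.38 ± 0.49 (SE). It had 2 and 9 reads in LM2 shTAF7, against 51 and 63 in LM2 control, and no read in the 4 MDA-MB-231 libraries. Of its 125 reads 114 were in LM2 control, so it met the limit of 80 only through the group where it was high, and its fall is given as a description. Its nearest coding gene, on the same strand, is SFMBT2.

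LINC02693, which the reference types as protein coding, had 713 and 731 reads in LM2 shTAF7 and 1203 and 1387 in LM2 control, a fall to 54.6% of control (-0.87 ± 0.08, SE, adjusted p = 2.8e-12). LINC00601, one of the highest per length, had 96 and 86 reads in LM2 shTAF7 and 162 and 165 in LM2 control, and fell to 54.6% of control as well (adjusted p = 4.3e-05). LINC00174 had 25 and 35 reads in LM2 shTAF7 and 94 and 67 in LM2 control, and fell to 36.6% of control (adjusted p = 1.7e-05), though it overlaps TPST1 on the other strand. In each of these the 2 shTAF7 libraries lay below both controls, which for LINC00174 was a condition of the rule for naming called RNAs. LINC00862 with 12 and 13 reads in LM2 shTAF7 and 37 and 43 in LM2 control, and LINC02009 with 17 and 25 and with 73 and 53, fell to 30.8% and 32.8% of control. Both met the limit of 80 reads only through LM2 control, the group where they were high, so their falls are given as a description. LINC00324 had 22 and 48 reads in LM2 shTAF7 and 85 and 80 in LM2 control, and fell to 41.5%. LINC02693, LINC00601, LINC00174, LINC00862, LINC02009 and LINC00324 kept their call in LM2 whichever library was left out. LINC02709 and LINC01426 did not: LINC02709 had a log2 fold change of -1.38, and -1.0 without LM2 shTAF7 replicate 2 (adjusted p = 0.064), and LINC01426, beside RUNX1, had -1.24, with -1.11 without LM2 shTAF7 replicate 3 and -0.99 without LM2 control replicate 2 (adjusted p = 0.051 and 0.095).

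LINC01116 was the RNA called higher in LM2 that kept its call in every such fit. It lies beside the HOXD genes, with MTX2 as the nearest coding gene in the reference, and is described as promoting growth in several tumours. It had 753 and 856 reads in LM2 shTAF7, against 488 and 387 in LM2 control, while MDA-MB-231 shTAF7 had 469 and 551 and MDA-MB-231 control 496 and 453. The LM2 groups were apart, while the read counts of the MDA-MB-231 groups overlapped and their TMM-scaled CPM lay close together without overlap. It rose 1.80-fold in LM2 (log2 fold change 0.85 ± 0.09, SE, adjusted p = 4.7e-10) and had a log2 fold change of 0.08 ± 0.10 in MDA-MB-231 (adjusted p = 0.59), and the 2 effects differed (0.76 ± 0.14, adjusted p = 2.5e-05). Its neighbour LINC01117, on the other strand, had 65 and 50 reads in LM2 shTAF7 and 30 and 18 in LM2 control, 2.35-fold higher (adjusted p = 0.0012), with a log2 fold change of 0.93 without LM2 control replicate 3 (adjusted p = 0.053). MTX2 rose in both lines, with log2 fold changes of 0.30 in LM2 and 0.32 in MDA-MB-231 (adjusted p = 0.0011 and 0.00059).

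Some of the other RNAs called higher in LM2 rested on single libraries. LINC02562 had 10 and 12 reads in LM2 shTAF7 and 5 and 1 in LM2 control (log2 fold change 1.80, adjusted p = 0.020), with 1.10 without LM2 control replicate 3 and 1.73 without LM2 shTAF7 replicate 3 (adjusted p = 0.23 and 0.086), and with 3.28 without LM2 control replicate 2. LINC00526 had 27 and 29 reads in LM2 shTAF7 and 18 and 8 in LM2 control, and its call (1.07, adjusted p = 0.0495) was lost without LM2 control replicate 3, either LM2 shTAF7 library or either MDA-MB-231 control library, with log2 fold changes from 0.62 to 1.08 and adjusted p from 0.051 to 0.40. Without LM2 control replicate 2 its log2 fold change was 1.76. LINC00707 had 107 and 116 reads in LM2 shTAF7 and 63 and 72 in LM2 control (0.69, adjusted p = 0.0071), and 0.60 without LM2 control replicate 2 (adjusted p = 0.085). In each of the 3, both shTAF7 libraries were above both controls. For LINC00526 and LINC00707 that was a condition of the rule for naming called RNAs, so it adds no support to their calls.

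In MDA-MB-231 few of these RNAs were called after the knockdown. Of the 194, 8 rose and 9 fell, or 4.12% and 4.64%, against 12.6% and 12.9% of all tested genes. Other non-coding classes also had low shares. Of the other lincRNA-typed genes 4.47% rose and 3.58% fell, and of the antisense-named genes 2.87% and 2.63%. Of protein-coding genes, 14.8% rose and 15.4% fell. The LINC RNAs had a median of 1.46 CPM, against 18.2 CPM for all tested genes. The part of level in these shares was not tested. The median log2 fold change of the LINC RNAs was -0.03, against 0.0081 for all tested genes, and 177 of them were not called. With a library left out the counts ranged from 4 to 8 higher and from 3 to 10 lower. Leaving out MDA-MB-231 shTAF7 replicate 3 gave 5 higher and 5 lower, leaving out MDA-MB-231 control replicate 2 gave 4 higher and 3 lower, and leaving out control replicate 3 gave 4 of each. In all, 3 of the 8 and 2 of the 9 kept their call in each of the 8 such fits: LINC00665, LINC00973 and LINC02870 higher, and LINC01128 and LINC01963 lower. DESeq2, which gave no adjusted p for 139 of the 194 here, called 2 higher and 4 lower.

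LINC00665, which gives rise to a micropeptide described in triple-negative breast cancer, had the largest fold change of the RNAs called in MDA-MB-231. It had 65 and 82 reads in MDA-MB-231 shTAF7, against 14 and 15 in MDA-MB-231 control. Both shTAF7 libraries were above both controls, and the rise was 4.96-fold (log2 fold change 2.31 ± 0.30, SE, adjusted p = 1.0e-07). LINC01963 had 129 and 164 reads in MDA-MB-231 shTAF7 and 233 and 230 in MDA-MB-231 control, and fell to 62.3% of control (adjusted p = 0.00057). LINC01128 had 273 and 338 reads in MDA-MB-231 shTAF7 and 439 and 419 in MDA-MB-231 control, and fell to 70.1% of control (adjusted p = 0.00038). Neither was called in LM2, where the log2 fold changes were 0.32 for LINC01963 and 0.07 for LINC01128, and both differed between the lines (adjusted p = 0.00055 and 0.0051), LINC01128 with a difference of 0.58 that was 0.48 without LM2 control replicate 2 (adjusted p = 0.0504).

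The other RNAs named in MDA-MB-231 lost their call with some library left out. LINC01124, divergent from the transcription factor gene SP5, had 34 and 41 reads in MDA-MB-231 shTAF7 and 20 and 14 in MDA-MB-231 control (log2 fold change 1.12, adjusted p = 0.028), with values from 0.93 to 1.34 and adjusted p from 0.071 to 0.19 when any of those 4 libraries was left out. LINC00511, described as promoting growth in breast cancer, had 292 and 392 reads in MDA-MB-231 shTAF7 and 280 and 229 in MDA-MB-231 control (0.40, adjusted p = 0.012), with 0.31 when replicate 3 of either group was left out (adjusted p = 0.16 for shTAF7 and 0.21 for control). LINC00261, which lies near FOXA2 and takes part in endoderm differentiation, had 402 and 426 reads in MDA-MB-231 shTAF7 and 535 and 516 in MDA-MB-231 control (-0.36, adjusted p = 0.012), with -0.39 to -0.27 and adjusted p from 0.053 to 0.18 without MDA-MB-231 shTAF7 replicate 3 or either control library. In all 3 the shTAF7 and control libraries did not overlap. That was a condition of the rule for naming called RNAs, so it adds no support to these calls. LINC01003 was called with a log2 fold change of 0.58, which ranged from 0.34 to 0.65 without MDA-MB-231 shTAF7 replicate 2 or either control library (adjusted p up to 0.36). LINC01521 was called with -1.11, against -0.82 without MDA-MB-231 shTAF7 replicate 3 and -1.0 without control replicate 2 (adjusted p = 0.095 and 0.068). LINC01399 was called with -1.10 and lost its call without any 1 of the 4 MDA-MB-231 libraries or LM2 control replicate 2 (adjusted p up to 0.23).

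Set side by side, the 2 knockdowns gave 8 LINC RNAs that were called in both lines, 3 in the same direction and 5 in opposite directions. Of the 8 called higher in MDA-MB-231, 4 were called lower in LM2, 4 were not called there and 0 were called higher. Of the 9 called lower in MDA-MB-231, 3 were called lower in LM2, 1 higher and 5 were not called. Of the 43 called lower in LM2, 36 were not called in MDA-MB-231. Over all tested genes, 983 were called higher in both lines and 654 lower in both, while 305 were higher in MDA-MB-231 and lower in LM2 and 313 the other way round.

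**Figure D2:**
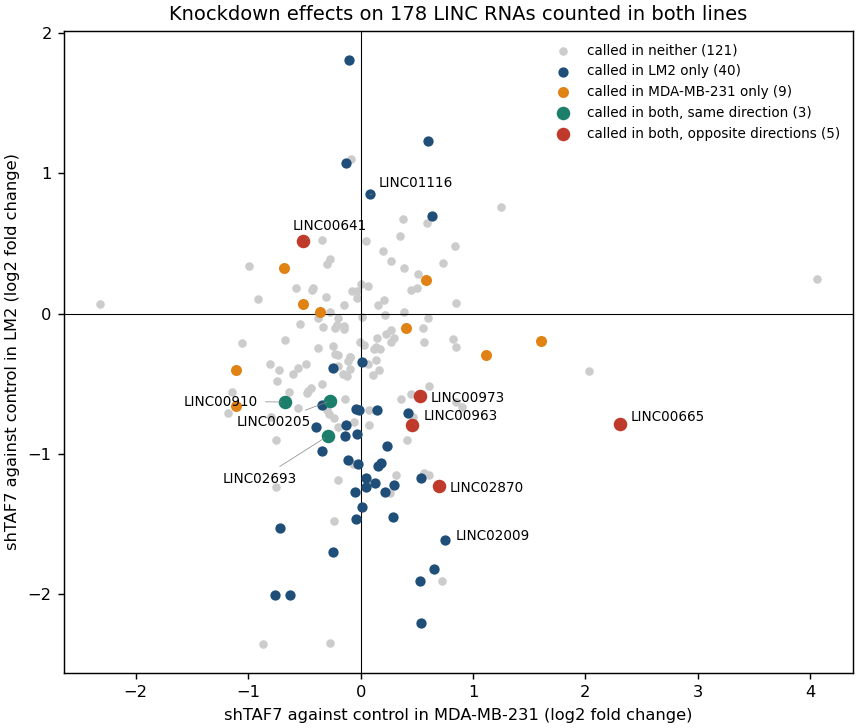
Log2 fold change of shTAF7 against control in LM2 (vertical) and in MDA-MB-231 (horizontal) for the 178 LINC RNAs with reads in both lines, 1 point per RNA, coloured by the comparison in which it was called. The 5 red points, LINC00665, LINC02870, LINC00973, LINC00963 and LINC00641, were called in opposite directions, and the 3 green points, LINC00910, LINC00205 and LINC02693, were called lower in both.

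LINC00665 and LINC00973 moved in opposite directions. LINC00665 had 55 and 44 reads in LM2 shTAF7, against 79 and 89 in LM2 control, a fall to 57.9% of control (log2 fold change -0.79 ± 0.23, SE, adjusted p = 0.0053), beside its rise in MDA-MB-231. The effects differed by -3.10 ± 0.38 on the log2 scale (adjusted p = 1.5e-08). Its fall in LM2 was -0.58 without LM2 shTAF7 replicate 3 and -0.68 without LM2 control replicate 3 (adjusted p = 0.12 and 0.071), while the difference between the lines kept its call in all 8 fits. LINC00973 had 356 and 395 reads in LM2 shTAF7 and 596 and 510 in LM2 control, while MDA-MB-231 shTAF7 had 295 and 371 and MDA-MB-231 control 222 and 232. It fell to 66.5% of control in LM2 (-0.59 ± 0.10, adjusted p = 8.2e-06) and rose 1.44-fold in MDA-MB-231 (0.53 ± 0.12, adjusted p = 0.00053), and both calls and the difference (-1.12 ± 0.16, adjusted p = 2.3e-07) held in all 8 fits. In both RNAs the groups of each line did not overlap.

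LINC02870, beside PWWP2B, had 10 and 16 reads in LM2 shTAF7 and 23 and 37 in LM2 control, while MDA-MB-231 shTAF7 had 214 and 265 and MDA-MB-231 control 147 and 144. It fell in LM2 (-1.23 ± 0.35, SE, adjusted p = 0.0038) and rose 1.62-fold in MDA-MB-231 (0.70 ± 0.16, adjusted p = 0.00069). The fall in LM2 was -0.97 without LM2 shTAF7 replicate 2 and -0.83 without LM2 control replicate 3 (adjusted p = 0.056 and 0.14). LINC00963 had 63 and 58 reads in LM2 shTAF7 and 103 and 103 in LM2 control, while MDA-MB-231 shTAF7 had 149 and 134 and MDA-MB-231 control 110 and 94. It fell to 57.6% of control in LM2 (adjusted p = 0.0012), and its rise in MDA-MB-231 (0.46, adjusted p = 0.048) was lost without MDA-MB-231 shTAF7 replicate 2 or any of the 4 control libraries, with values from 0.24 to 0.52 and adjusted p from 0.050 to 0.45. LINC00641 had 319 and 244 reads in LM2 shTAF7 and 193 and 193 in LM2 control, while MDA-MB-231 shTAF7 had 222 and 387 and MDA-MB-231 control 444 and 403. It rose 1.43-fold in LM2 (0.52, adjusted p = 0.0030), with 0.27 without LM2 shTAF7 replicate 2 (adjusted p = 0.21), and fell in MDA-MB-231 (-0.51, adjusted p = 0.0025), with -0.28 without MDA-MB-231 shTAF7 replicate 2 (adjusted p = 0.14) and -0.82 without replicate 3. For LINC02870, LINC00963 and LINC00641 the difference between the lines, -1.92, -1.26 and 1.03, kept its call in all 8 fits. In each of the 3 the shTAF7 and control libraries of a line did not overlap.

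**Figure D3:**
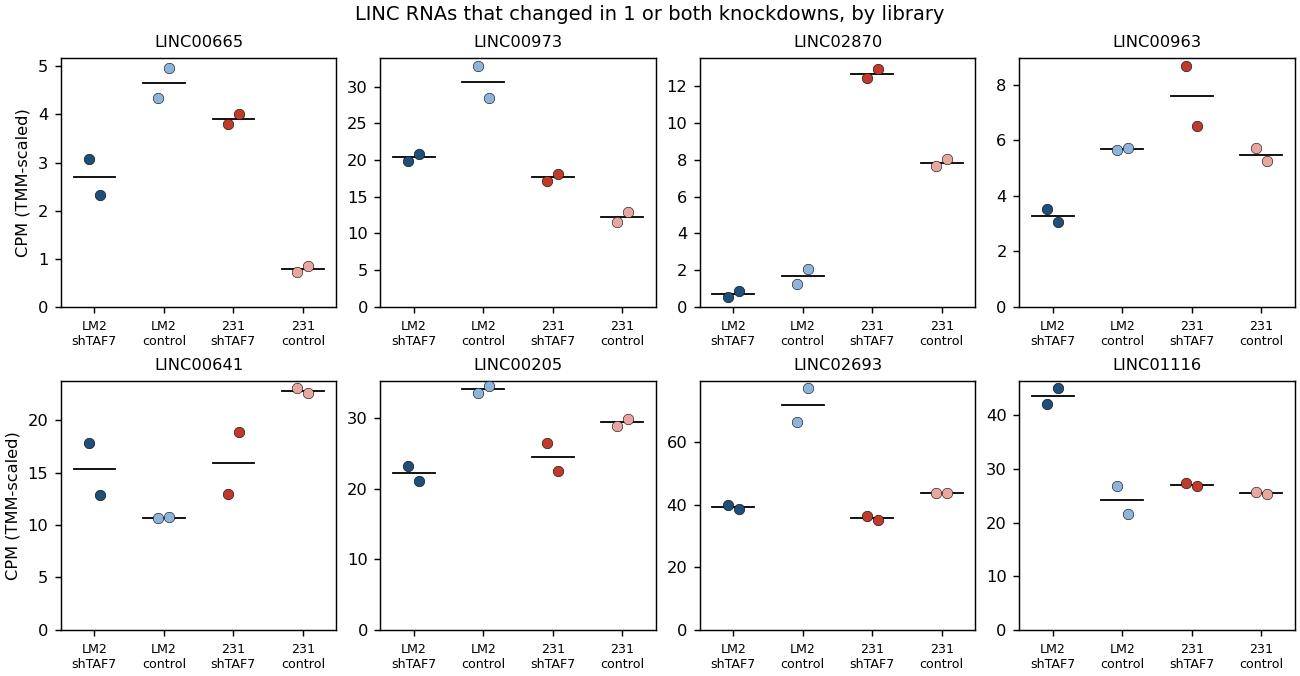
TMM-scaled CPM of 8 LINC RNAs in each library (points) with the mean of the 2 libraries of a group (line), LM2 shTAF7 and control left of MDA-MB-231 shTAF7 and control, each axis starting at 0. LINC00665 and LINC00973 were lower with shTAF7 in LM2 and higher with shTAF7 in MDA-MB-231, and LINC01116 was higher with shTAF7 in LM2 and lay close to control in MDA-MB-231.

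LINC00205, LINC02693 and LINC00910 were called lower in both lines. LINC00205, transcribed divergently from POFUT2, had 417 and 400 reads in LM2 shTAF7 and 611 and 621 in LM2 control, while MDA-MB-231 shTAF7 had 454 and 461 and MDA-MB-231 control 556 and 535. It fell to 65.0% of control in LM2 (adjusted p = 9.8e-07) and to 83.0% in MDA-MB-231 (-0.27, adjusted p = 0.034), a call lost in MDA-MB-231 without MDA-MB-231 shTAF7 replicate 3 or either control library (-0.30 to -0.15, adjusted p from 0.11 to 0.42). POFUT2, which adds O-fucose to secreted proteins, fell in LM2 with a log2 fold change of -0.63, and its log2 fold change in MDA-MB-231 was 0.04 (adjusted p = 0.80). LINC02693 had 625 and 717 reads in MDA-MB-231 shTAF7 and 841 and 782 in MDA-MB-231 control (-0.29, adjusted p = 0.0078), with -0.30 to -0.26 and adjusted p from 0.056 to 0.083 without the same 3 libraries. LINC00910 had 44 and 37 reads in LM2 shTAF7 and 64 and 59 in LM2 control, while MDA-MB-231 shTAF7 had 33 and 48 and MDA-MB-231 control 68 and 59, with log2 fold changes of -0.63 in LM2 and -0.67 in MDA-MB-231. The call in LM2 was lost without LM2 shTAF7 replicate 3 or any of the 4 control libraries (adjusted p up to 0.29). The call in MDA-MB-231 was lost without any 1 of its own 4 libraries or LM2 control replicate 2 (adjusted p up to 0.21). In each of the 3, every shTAF7 library lay below every control library of its line.

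Tested as the difference between the knockdown effects, LM2 minus MDA-MB-231, 21 LINC RNAs were lower and 5 higher. That is 10.8% and 2.58% of them, against 11.9% and 13.9% of all tested genes. The median difference was -0.32, against -0.0026 for all tested genes. Of these calls, 10 of the 21 and 3 of the 5 held whichever library was left out. Those 10 included LINC00665, LINC02870, LINC00174 (-1.74, adjusted p = 0.00042), LINC00662 (-1.34, adjusted p = 1.3e-09), LINC00963 and LINC00973. Without TMM scaling, 32 were lower and 5 higher.

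Between the lines, LINC RNAs were called in both directions. With the control hairpin, 69 were higher and 48 lower in LM2 than in MDA-MB-231, or 35.6% and 24.7%, against 32.2% and 32.1% of all tested genes. With shTAF7 in both lines, 51 were higher and 76 lower in LM2, or 26.3% and 39.2%, against 30.9% and 31.6% of all tested genes. The median log2 fold changes were 0.16 and -0.13, against 0.024 and 0.0044 over all tested genes. A log2 fold change of at least 1 in size was found in 49.0% of the LINC RNAs with the control hairpin and in 51.0% with shTAF7, against 23.5% and 22% of all tested genes. The LINC RNAs had a median of 1.46 CPM, against 18.2 CPM for all tested genes. The limit on summed counts also let in 13 with no read in LM2 and 3 with none in MDA-MB-231. The part of low level and of that selection in these shares was not tested. The 2 comparisons use different libraries: 43 RNAs were higher in LM2 in both and 43 lower in both. Another 4, LINC00665, LINC00174, LINC00662 and LINC01347 (named after its values were seen), were higher in LM2 with the control hairpin and lower with shTAF7, and 0 went the other way. Of all 15923 tested genes, 3591 were higher in both and 3781 lower in both. A further 199 were higher with the control hairpin and lower with shTAF7, and 218 went the other way. Of the 4 LINC RNAs, LINC00662 kept both calls whichever library was left out, and the others did not. LINC00174 had log2 fold changes of 0.96 with the control hairpin, and 0.69 without LM2 control replicate 2 (adjusted p = 0.056), and of -0.79 with shTAF7, and -0.66 without MDA-MB-231 shTAF7 replicate 3 and -0.60 without LM2 shTAF7 replicate 2 (adjusted p = 0.10 and 0.13). LINC01347 had 1.04 with the control hairpin (adjusted p = 0.0497), a call that held in 1 of the 8 fits, with 1.66 without MDA-MB-231 control replicate 2, and that was 0.59 without control replicate 3 of that line (adjusted p = 0.40). With shTAF7 it had -1.70, and -1.57 without MDA-MB-231 shTAF7 replicate 3 and -1.17 without LM2 shTAF7 replicate 3 (adjusted p = 0.064 and 0.15).

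LINC00665 had 79 and 89 reads in LM2 control, against 14 and 15 in MDA-MB-231 control, 5.91-fold higher (log2 fold change 2.56 ± 0.29, SE, adjusted p = 1.3e-10). With shTAF7 it had 55 and 44 reads in LM2, against 65 and 82 in MDA-MB-231, and the sign was the other way (-0.54 ± 0.24, adjusted p = 0.047). That second call was lost in 5 of the 8 fits that leave out a library. The value was -0.33 without LM2 shTAF7 replicate 3 (adjusted p = 0.35), and -0.58 to -0.50 without either MDA-MB-231 shTAF7 library or either LM2 control library (adjusted p from 0.053 to 0.14). LINC00662 was 1.83-fold higher in LM2 with the control hairpin (adjusted p = 2.1e-10) and at 72.6% of MDA-MB-231 with shTAF7 (adjusted p = 0.00030). These values restate the knockdown effects above with the same libraries.

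A set of 16 LINC RNAs had reads in 1 line and none in the 4 libraries of the other. Of these, 13 had no read in LM2 and 3 had none in MDA-MB-231. Each met the limit of 80 reads through the line where it had reads, so their difference between the lines is a description, given with no test. LINC02864 had 0 and 0 reads in LM2 shTAF7, 0 and 0 in LM2 control, 339 and 369 in MDA-MB-231 shTAF7 and 378 and 350 in MDA-MB-231 control. Against a floor of 3 counts per library it was at least 118-fold lower in LM2 control than in MDA-MB-231 control. LINC02616, with 178 to 181 reads in every MDA-MB-231 library, was at least 58.1-fold lower in LM2 control. LINC01446 was at least 45.7-fold lower, LINC02476 at least 43.5-fold and LINC01518 at least 24.0-fold, and LINC00648, LINC02293, LINC02327, LINC01522, LINC01036, LINC02163, LINC00871 and LINC02416 at least 6.49-fold. LINC00839 came close to this set, with 1 read in the 4 LM2 libraries against 218 to 314 in each MDA-MB-231 library, 574-fold lower with the control hairpin (95% counting interval 103 to 22716). It too met the limit only through the line where it was high, so its difference is a description. Zeros here say that a level is under the floor, between 0.146 and 0.175 CPM, not that the RNA is absent.

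LINC02910 had no read in MDA-MB-231, and 130 and 154 in LM2 shTAF7 and 166 and 152 in LM2 control, at least 54.5-fold higher in LM2 control. LINC02642 was at least 19.5-fold higher and LINC02575 at least 11.6-fold higher. LINC00632, whose locus gives rise to the circular RNA CDR1as and which overlaps CDR1 on the other strand, had 167 and 145 reads in LM2 shTAF7 and 144 and 148 in LM2 control, against 0 and 0 in MDA-MB-231 shTAF7 and 0 and 1 in MDA-MB-231 control. The counts are of its gene row and not of the circular form. Its ratio with the control hairpin was 300 (95% counting interval 53.4 to 11892). LINC01615 had 250 and 307 reads in LM2 shTAF7 and 294 and 291 in LM2 control. In MDA-MB-231 it had 11 and 16 with shTAF7 and 10 and 8 in control. With the control hairpin it was 33.0-fold higher in LM2 (log2 fold change 5.04 ± 0.23, SE). LINC00632 and LINC01615 met the limit on summed counts only through LM2, the line where they were high. Their differences between the lines are therefore given as a description. None of the 16 RNAs apart from LINC02642 was called in a knockdown comparison of the line that had reads.

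**Figure D4:**
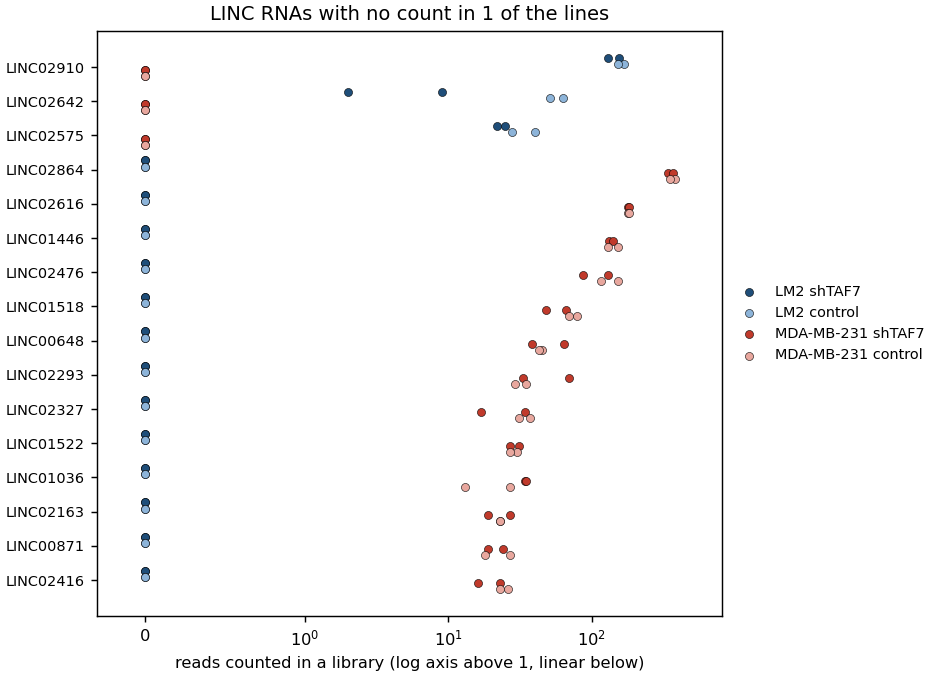
Reads counted per library for the 16 LINC RNAs with no read in 1 of the lines, on an axis that is logarithmic above 1 read, with LM2 in blue and MDA-MB-231 in red, shTAF7 dark and control light. The top 3 RNAs had no read in MDA-MB-231 and the other 13 none in LM2, and LINC02642 had 2 and 9 reads in LM2 shTAF7 against 51 and 63 in LM2 control.

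Of a list of LINC RNAs with a described role, 20 were among the 194. In LM2 knockdown 7 fell (LINC00324, LINC00963, LINC00665, LINC00472, LINC00460, LINC00973 and LINC00662), 2 rose (LINC01116 and LINC00707) and the other 11 did not pass the threshold, where 19.4% of all tested genes fell and 21.8% rose. In MDA-MB-231 knockdown 4 rose (LINC00963, LINC00511, LINC00665 and LINC00973), 0 fell and 16 were not called, where 12.6% of all tested genes rose and 12.9% fell. LINC00472, described as a tumour suppressor in breast cancer, had 570 and 533 reads in LM2 shTAF7 and 736 and 682 in LM2 control, while MDA-MB-231 shTAF7 had 160 and 228 and MDA-MB-231 control 244 and 208. It fell to 76.3% of control in LM2 (-0.39, adjusted p = 0.00092), with -0.28 without LM2 shTAF7 replicate 3 (adjusted p = 0.058), and was 3.22-fold higher in LM2 than in MDA-MB-231 with the control hairpin. LINC00460, described as promoting invasion in carcinomas, had 14 and 21 reads in LM2 shTAF7 and 37 and 34 in LM2 control, while MDA-MB-231 shTAF7 had 159 and 182 and MDA-MB-231 control 206 and 158. It fell to 48.5% of control in LM2 (-1.05, adjusted p = 0.0058), with -0.82 without LM2 shTAF7 replicate 2 (adjusted p = 0.072), and stood at 20.1% of MDA-MB-231 in LM2 with the control hairpin.

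LINC00511 was also lower in LM2, with 85 and 92 reads in LM2 shTAF7 and 93 and 93 in LM2 control, at 37.6% of MDA-MB-231 with the control hairpin (adjusted p = 1.2e-11). LINC01638, described in triple-negative breast cancer, had 2 and 0 reads in LM2 shTAF7, 6 and 5 in LM2 control, 12 and 14 in MDA-MB-231 shTAF7 and 26 and 21 in MDA-MB-231 control. Its ratio in LM2 knockdown, 5.61-fold lower, had a counting interval of 1.22 to 52.1 and was not called (adjusted p = 0.054). LINC01089, known as LIMT and described as inhibiting metastasis, overlaps RHOF on its strand, was not called in either knockdown and was 2.13-fold higher in LM2 control than in MDA-MB-231 control (log2 fold change 1.09, adjusted p = 0.0060). That call was lost without replicate 3 of either control group, with log2 fold changes of 0.93 for LM2 (adjusted p = 0.070) and 0.87 for MDA-MB-231 (adjusted p = 0.087). LINC01234, LINC00467 and LINC00857 were not called in either knockdown and differed between the lines, LINC01234 at 48.0% and LINC00467 and LINC00857 1.34-fold and 2.28-fold higher in LM2 with the control hairpin. LINC00339, LINC00847 and LINC01503 were not called in either knockdown.

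Each LINC RNA was set beside its nearest coding neighbour by order in the reference annotation (GENCODE 29, GRCh38). In LM2 knockdown, 37 of the called LINC RNAs had a tested neighbour, in 22 the neighbour was called too, and in 11 of these both moved the same way. In MDA-MB-231 both were called in 4 of 16 and moved the same way in 3. Between the lines both were called in 59 of 85 with the control hairpin, 43 of them in the same direction, and in 65 of 88 with shTAF7, 46 in the same direction. Of all tested genes, 41.3% were called in either direction in LM2 knockdown, 25.6% in MDA-MB-231 knockdown, 64.4% between the control lines and 62.5% between the shTAF7 lines. How often other neighbouring genes were called in the same direction was not computed, so the same-direction counts have no baseline here. LINC01124 and SP5 are an example in MDA-MB-231, where SP5 rose with a log2 fold change of 0.91 (adjusted p = 0.00010). SP5 also rose in LM2 (1.12), where LINC01124 had 10 and 30 reads with shTAF7 and 25 and 23 in control (-0.30, adjusted p = 0.59). CCRL2, a chemoattractant receptor beside LINC02009, fell in LM2 (-0.42, adjusted p = 0.0077) and rose in MDA-MB-231 (0.64, adjusted p = 0.00051), where LINC02009 had 3 and 4 reads with shTAF7 and 3 and 1 in control.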

How the data were processed

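RNA from 8 libraries, made after mRNA enrichment of total RNA per the labels, was analysed in 4 groups of 2. The deposited count values are whole, unnormalized read counts per gene. The authors also deposited FPKM, which divides those counts by gene length and library total: over 3398 genes, counts divided by FPKM tracked library totals within 0.0376%. STAR 2.7.10a and hg19 are named in the submitters' processing notes. For the counting program, its strand setting and the annotation, no name was given in the sources used here. Gene type, chromosome and neighbours came from GENCODE 29, in which 94.8% of genes were found, and promoter windows from RefSeq.

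The filterByExpr and TMM functions and the quasi-likelihood test of edgeR 4.0.16 (R 4.3.3) were run on all 8 libraries, with 1 mean per group and 4 residual degrees of freedom. P-values were adjusted by Benjamini-Hochberg over 15923 genes, and an adjusted p under 0.05 counts as called. The SE is the log2 fold change divided by the square root of F. The script was tested on simulated data. Alternatives were RLE scaling, no TMM, DESeq2 1.42.0, limma 3.58.1 on log2(FPKM + 1) or log2(FPKM + 0.1), other filters, a 2-fold limit, a replicate block, the 4 libraries compared alone, and leaving out each library. Counting intervals (95%) and floors of 3 counts per library cover counting error only.

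The LINC RNAs and all lists were chosen with earlier results of these data known. Genes named in the text come from a rule: the 12 highest by FPKM, up to 8 called RNAs with the highest and 8 with the lowest log2 fold change in each comparison (mean of at least 1 CPM, groups not overlapping), those called in both knockdowns, those with no read in a group, those beside the limit of 80 counts, and those with a described role. For RNAs named by their fold change in a pairwise comparison, groups that do not overlap were thus fixed by the naming and lend no support. Examples of neighbours, exosome and termination genes were chosen after their values were seen.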

Additional observations from a re-analysis of the deposited data

Results flagged for a closer look

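For 18 named LINC RNAs the knockdown effect differed between the lines by edgeR's test of the difference (log2 fold change in LM2 minus that in MDA-MB-231). The difference was -3.10 for LINC00665, -1.92 for LINC02870, -1.74 for LINC00174, -1.34 for LINC00662, -1.26 for LINC00963, -1.12 for LINC00973 and -0.58 for LINC02693. It was 0.76 for LINC01116, 1.03 for LINC00641 and 1.01 for LINC01963. The calls on those 10 held whichever library was left out.

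The other 8 lost their call in 1 or more such fits. LINC01128 differed by 0.58, with 0.48 without LM2 control replicate 2 (adjusted p = 0.0504). LINC00324 differed by -1.48, with -1.35 to -1.05 without MDA-MB-231 shTAF7 replicate 3, MDA-MB-231 control replicate 2 or LM2 shTAF7 replicate 2. LINC00601 differed by -0.74, with -0.69 to -0.54 without replicate 3 of any of the 4 groups. LINC02562 differed by 1.91, with 1.22 to 1.85 without MDA-MB-231 control replicate 2, LM2 shTAF7 replicate 3 or LM2 control replicate 3, and 3.38 without LM2 control replicate 2.

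LINC00622 differed by -1.52, with -1.32 to -0.99 without MDA-MB-231 shTAF7 replicate 3, MDA-MB-231 control replicate 3, LM2 shTAF7 replicate 2 or LM2 control replicate 2. The remaining 3 lost their call in most of the 8 fits. LINC00460 differed by -0.93 and kept its call without MDA-MB-231 control replicate 2 or LM2 shTAF7 replicate 3. LINC00659 differed by -1.57 and kept its call without LM2 shTAF7 replicate 2 or LM2 control replicate 2. LINC01376 differed by -1.70 and kept its call without MDA-MB-231 shTAF7 replicate 2, MDA-MB-231 control replicate 3 or LM2 shTAF7 replicate 2.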

How the results depend on the processing

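In every alternative tried, no called value of a named RNA changed sign: of 3018 recomputed values, 2767 kept their call and 251 lost it, and 125 of the 179 called values held whichever library was left out. In MDA-MB-231 knockdown, 8 higher and 9 lower calls became 2 and 4 with DESeq2 (no adjusted p for 139 RNAs), 4 higher with limma on log2(FPKM + 1), 4 and 4 with limma on log2(FPKM + 0.1), and 3 and 2 at a 2-fold limit. In LM2 knockdown, 6 higher became 3 with limma on log2(FPKM + 0.1) and 3 at a 2-fold limit, and 43 lower became 23 with DESeq2 and 24 at a 2-fold limit. Between the shTAF7 lines, 76 lower became 49 with DESeq2. For the difference between knockdowns, 5 higher became 3 with limma on log2(FPKM + 1), 2 with limma on log2(FPKM + 0.1) and 3 at a 2-fold limit, and 21 lower became 32 without TMM, 10 with DESeq2 and 33 with limma on log2(FPKM + 1). The cause was not tested. With a library left out, counts ranged from 4 to 8 higher and 3 to 10 lower in MDA-MB-231 and from 3 to 6 higher and 26 to 44 lower in LM2. Without TMM the calls over all genes were 1297 higher and 2674 lower for the difference, against 2221 and 1892 with it. Libraries of the same number showed little shared deviation from their group means (correlations from -0.062 to 0.021). That cannot tell whether they were made together, which the labels do not state. With a replicate block the counts were 8 higher and 7 lower in MDA-MB-231 knockdown, 5 and 43 in LM2 knockdown, 68 and 48 between controls, 51 and 74 between shTAF7 lines, and 5 and 22 for the difference. The median LINC RNA had 1.46 CPM, and the part of depth in the calls was not tested.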
